A study of Mus musculus with 39 samples.

Results

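The comparison described here is that of microglia from mice of the PLX arm with microglia from mice without PLX, after lipopolysaccharide (LPS) and a control prenatal history. It uses 10 of the 39 libraries of the series: the 6 labelled CON_PLX_LPS and 4 labelled CON_CON_LPS (replicates 1, 2, 4 and 5). The title of CON_CON_LPS replicate 3 marks it for exclusion without giving a reason, and it was left out, as was MIA_PLX_SAL replicate 1, so that 37 libraries in 8 groups entered the fit. All were RNA-seq libraries of striatal microglia. The donors were male mice 8 to 10 weeks old, and the cells were sorted by flow cytometry on CD11b, P2RY12 and a low level of CD45, 18 h after an intraperitoneal injection of saline or of LPS at 4500 endotoxin units per g of body weight. In each group name the first term is the prenatal history (CON, control, or MIA, maternal immune activation), the second the arm (CON or PLX) and the third the injection (SAL or LPS). No strain, genotype or transgene is given in the labels. They do not define PLX or say when it was given, and they do not state whether each replicate is its own animal. The p-values therefore reflect the spread among these libraries only, part of which could be technical.

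Microglia are the resident macrophages of the brain and depend on signalling through the CSF1 receptor to survive. Names of several CSF1 receptor inhibitors used to deplete microglia begin with PLX, and after such a drug is withdrawn the niche refills from surviving microglia. LPS, a bacterial cell wall component, acts through TLR4 and induces NF-kB target genes, interferon-stimulated genes and the antigen presentation machinery, while homeostatic microglial genes decline.

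Of 13420 genes tested with edgeR's quasi-likelihood test, 1 differed between the PLX arm and the arm without PLX after LPS at a Benjamini-Hochberg adjusted p under 0.05. It was Nbea, which fell (0.00745% of genes tested were called lower). No gene was called higher (0% of genes tested). At an unadjusted p under 0.05, 511 genes had higher values in the PLX arm (3.81%) and 433 had lower values (3.23%), 944 in all (7.03%). DESeq2 also called 1 gene, Nbea, and limma voom with sample quality weights called 0, with 824 genes at an unadjusted p under 0.05. The median log2 fold change over all genes was -0.01. All 6 PLX libraries lay above all 4 others for 51 genes (0.380%) and below them for 66 (0.492%).

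The promoters of 3 genes are shown because these are the called gene and members of the complement and phagocytic receptor and MHC class I lists described later. Each is the RefSeq stretch of 250 bases before the annotated start (build GRCm38.p6), read 5′ to 3′ in the direction of the gene. That of Nbea lies at chr3:56183702-56183951 on the minus strand, that of Fcgr4 at chr1:171018676-171018925 on the plus strand and that of B2m at chr2:122147437-122147686 on the plus strand. Capitals mark the GC box GGGCGG in Nbea and the interferon response pattern GAAANNGAAA in Fcgr4 and B2m, each searched on both strands. Of the 2 motifs only the one named was marked in each stretch. The motif was chosen by gene, so the matches are no test of enrichment.
Nbea: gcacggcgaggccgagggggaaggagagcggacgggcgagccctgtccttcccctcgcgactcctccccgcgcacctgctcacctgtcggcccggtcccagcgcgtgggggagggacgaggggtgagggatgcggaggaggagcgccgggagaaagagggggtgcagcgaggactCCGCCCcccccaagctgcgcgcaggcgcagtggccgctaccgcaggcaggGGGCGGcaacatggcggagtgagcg
Fcgr4: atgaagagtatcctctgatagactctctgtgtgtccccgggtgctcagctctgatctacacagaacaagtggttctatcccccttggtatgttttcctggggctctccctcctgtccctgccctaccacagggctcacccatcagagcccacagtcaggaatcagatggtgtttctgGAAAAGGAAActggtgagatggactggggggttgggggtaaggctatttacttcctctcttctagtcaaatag
B2m: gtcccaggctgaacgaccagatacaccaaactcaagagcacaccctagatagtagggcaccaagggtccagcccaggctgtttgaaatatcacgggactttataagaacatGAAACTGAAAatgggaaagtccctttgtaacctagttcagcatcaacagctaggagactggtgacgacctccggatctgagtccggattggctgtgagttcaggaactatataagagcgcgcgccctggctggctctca
The Nbea stretch, with 74.8% of its bases G or C, held 2 GC boxes, beginning 75 and 25 bases before the start. The GC box was found in 32.7% of 32851 RefSeq promoters searched over the same length. The interferon response pattern began 73 bases before the start of Fcgr4 and 139 bases before that of B2m. It was found in 2.98% of the promoters. A match describes letters in the window and is no measurement of binding.

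Nbea (ENSMUSG00000027799.12, GENCODE M21 on GRCm38, chr3:55625195-56183701, minus strand) encodes neurobeachin, a scaffold protein with a BEACH domain that binds protein kinase A and is best known from membrane trafficking in neurons. Its level, in TMM-scaled CPM (counts relative to library size), was 72.8, 59.3, 63.5 and 62.8 in CON_CON_LPS replicates 1, 2, 4 and 5. In CON_PLX_LPS replicates 1 to 6 it was 39.6, 29.4, 28.3, 40.6, 30.5 and 43.3. The highest PLX library lay below the lowest library without PLX. The means were 64.6 ± 5.79 CPM (SD, n = 4) and 35.3 ± 6.59 CPM (SD, n = 6), a log2 fold change of -0.87 ± 0.147 (SE) with an adjusted p of 0.012 by edgeR's quasi-likelihood test.

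The call of Nbea did not hold in every fit, although the log2 fold change stayed between -0.81 and -1.05. Adjusted p was 0.000119 with DESeq2 and 0.498 with limma voom. It was 0.999 when edgeR was fitted to the 2 groups alone, 0.138 when these had a replicate block and 0.206 without a filter on low counts. Without CON_CON_LPS replicate 1 or 4 edgeR's adjusted p was 0.0837 and 0.0544, and without CON_PLX_LPS replicate 2, 3 or 5 it was 0.0768, 0.0836 and 0.0722.

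Mean values of Nbea were also lower with PLX in the other arms. Mean CPM at saline with a control prenatal history was 119 ± 11.96 without PLX and 70.7 ± 13.4 with PLX (SD, n = 4 each), a log2 difference of -0.75 ± 0.161 (SE) that was not called by edgeR (adjusted p = 0.54). After LPS in the MIA arms the means were 52.6 ± 3.99 without PLX and 39.9 ± 5.73 with PLX (SD, n = 6 each), a log2 difference of -0.40 ± 0.137 (SE) that was not called either (adjusted p = 0.379). The PLX difference of Nbea after LPS minus that at saline was -0.12 ± 0.218 on the log2 scale (edgeR, unadjusted p = 0.594). LPS itself lowered Nbea with a control prenatal history, with log2 fold changes of -0.88 without PLX and -1.001 with PLX (edgeR adjusted p = 0.000121 and 2.53e-06).

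**Figure D1:**
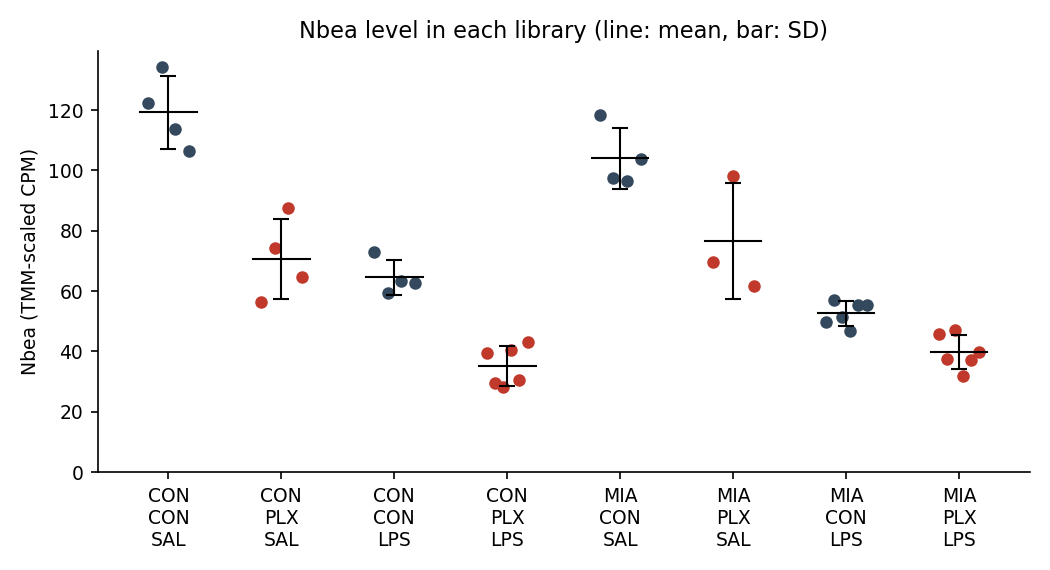
Level of Nbea in each of the 37 libraries (vertical axis, TMM-scaled CPM; horizontal axis, the 8 groups by prenatal history, arm and injection; dark points without PLX, red points with PLX; line and bar, mean and SD). The 6 CON_PLX_LPS libraries lie between 28.3 and 43.3, below the 4 CON_CON_LPS libraries at 59.3 to 72.8.

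The libraries kept no strand, and whether reads of genes inside Nbea entered its counts was not tested. The annotation places 8 other genes within Nbea, of which 7 held counts in the 10 libraries. The most counted of these, Gm42843 and Gm42842, lie on the same strand as Nbea. They had 102 and 66 counts in the 10 libraries together, against 1824 for Nbea. Their log2 fold changes were -1.20 and -0.95, with unadjusted p of 0.0148 and 0.0663. Nbea is also a neuronal gene. Of 13 neuron markers 6 were tested, and 6 of 6 had log2 fold changes above 0 (49.0% over all genes tested). The part of neuronal RNA in the values of Nbea was not tested.

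Among genes with higher values in the PLX arm, the smallest p-values belonged to Imp3, Fcgr4, Ccr1, Elob, Ttyh1 and Psmb10, none of which was called by edgeR (adjusted p = 0.505 to 0.572). Fcgr4 encodes an activating Fc gamma receptor. Its CPM was 109, 128, 99.0 and 141 in the 4 libraries without PLX and 350, 205, 292, 180, 272 and 191 in the 6 PLX libraries. The groups did not overlap, and the log2 difference was 1.06 ± 0.255 (SE). At saline the PLX difference of Fcgr4 was 0.12, and in the MIA arms after LPS it was 0.20.

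Ccr1, a receptor for inflammatory CC chemokines, had 1.07, 4.69, 5.37 and 8.56 CPM without PLX and 11.9, 27.0, 47.8, 12.4, 56.2 and 15.8 CPM with PLX. The groups did not overlap, and the PLX libraries spread widely among themselves. The log2 difference of Ccr1 was 2.53 ± 0.614 after LPS, 1.74 ± 0.664 at saline and 1.61 ± 0.545 in the MIA arms after LPS, and edgeR called none of them (adjusted p = 0.505, 1 and 0.377). When edgeR was fitted to the 2 groups alone with a replicate block, Ccr1 was called, with Ccl12, a monocyte chemoattractant, and Mrc1, the mannose receptor of perivascular macrophages. In that fit Gm49369, a predicted gene outside the naming rule, was called lower and Nbea was not called.

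Imp3, a component of the U3 small nucleolar ribonucleoprotein that processes ribosomal RNA, had 8.03, 3.98, 4.86 and 6.98 CPM without PLX and 10.3 to 18.1 CPM with PLX (log2 difference 1.26 ± 0.299). Elob encodes elongin B, a subunit of ubiquitin ligase complexes. It had 13.1, 20.4, 7.68 and 27.6 CPM without PLX and 25.7 to 45.3 with PLX, which overlap. Its log2 difference of 1.06 ± 0.262 (edgeR, adjusted p = 0.505) became 1.23 with a replicate block, where it was called (adjusted p = 0.00966). Ttyh1, a membrane protein also found in astrocytes, had a log2 difference of 1.31 ± 0.339, with the values of the 2 groups overlapping.

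Among genes with lower values, the ones that followed Nbea were Liph, Dcbld2, Atg16l2, Gpcpd1 and Atp2b1 (edgeR, adjusted p = 0.572 for each). Atp2b1 encodes a calcium pump of the plasma membrane. Its CPM was 310 to 387 without PLX and 231 to 285 with PLX, with no overlap and a log2 difference of -0.43 ± 0.127. Dcbld2, a transmembrane receptor related to neuropilins, had 31.0 to 44.4 CPM without PLX and 18.9 to 29.5 with PLX, again with no overlap (log2 difference -0.69 ± 0.197). Liph, a phospholipase, Atg16l2, a relative of the autophagy gene Atg16l1, and Gpcpd1, which cleaves glycerophosphocholine, had log2 differences of -1.38, -0.76 and -0.78, with overlapping groups.

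No difference was called in the markers of the sort or of microglial identity. P2ry12, the purinergic receptor used in the gate, had 176, 380, 247 and 313 CPM without PLX and 154 to 381 with PLX. Its log2 difference was -0.09 ± 0.322. Those of Itgam (CD11b), Ptprc (CD45), Csf1r, Tmem119 and Cx3cr1 were 0.06 ± 0.236, -0.36 ± 0.179, 0.07 ± 0.149, 0.14 ± 0.422 and -0.07 ± 0.601. None was called by edgeR (adjusted p = 0.712 to 0.990). Of 22 homeostatic microglial genes tested, 0 were called by edgeR, DESeq2 or limma voom and 0 had an unadjusted p under 0.05 in edgeR, with a median log2 fold change of 0.08 (-0.04 without CON_CON_LPS replicate 4).

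The 34 gene lists held 624 different genes, of which 555 passed the filter on low counts. None of them was called by edgeR, and 0 were called by DESeq2 or limma voom. The lists are therefore given by their counts at an unadjusted p under 0.05 and their medians. Over all genes, 3.81% were higher and 3.23% lower at that threshold, 49.0% had values above 0 and the median was -0.01. One library bears on many of the lists. CON_CON_LPS replicate 4 had the lowest share of mitochondrial ribosomal RNA of the 10 libraries, at 6.14% against 12.01% to 16.6% in the other libraries without PLX and 14.4% to 18.8% with PLX. Where a count changed or a median moved by over 1.5 times without it, that value follows; without it, 2.74% of all genes had a higher and 3.06% a lower value at that threshold.

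**Figure D2:**
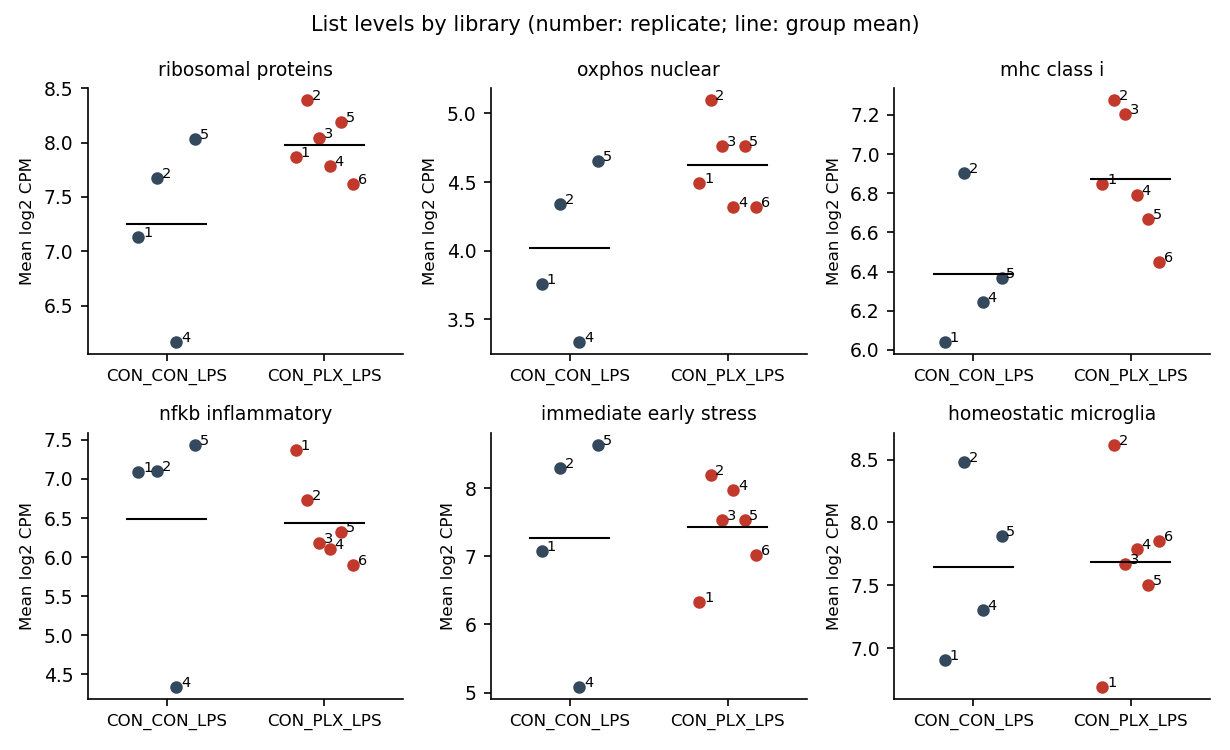
Mean log2 CPM of 6 gene lists (vertical axes, each on its own scale) in the 4 CON_CON_LPS libraries (dark) and the 6 CON_PLX_LPS libraries (red); numbers are replicates and lines group means. Replicate 4 without PLX is the lowest library for ribosomal proteins, nuclear-encoded oxidative phosphorylation, NF-kB targets and immediate early genes. The MHC class I values run from 6.45 to 7.28 with PLX and from 6.04 to 6.90 without PLX, which overlap.

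Genes of MHC class I presentation had values above 0 on the log2 scale in 18 of 18 tested members (49.0% over all genes), with a median of 0.45. At an unadjusted p under 0.05, 7 of the 18 were higher and 0 lower, and without CON_CON_LPS replicate 4 the count was 8 higher. In mean log2 CPM the list overlapped between the groups, at 6.04 to 6.90 without PLX and 6.45 to 7.28 with PLX. B2m, the invariant light chain of class I molecules, had 2299, 2729, 1979 and 2704 CPM without PLX and 3964, 4282, 4353, 3384, 3635 and 2944 CPM with PLX. The groups did not overlap, and the log2 difference of B2m was 0.63 ± 0.170 (edgeR, adjusted p = 0.572). Psmb10, a catalytic subunit of the immunoproteasome, had 15.5 to 34.5 CPM without PLX and 34.7 to 67.6 with PLX (log2 difference 1.07 ± 0.277). Psme2, a proteasome activator subunit, and Tapbp, which loads peptides onto class I molecules, differed by 0.67 ± 0.245 and 0.39 ± 0.142. The member with the largest p was Pdia3, at 0.02. The median of the list was -0.03 for PLX at saline and 0.05 for PLX after LPS in the MIA arms.

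Among complement and phagocytic receptors, 4 of 23 had higher values at an unadjusted p under 0.05 (3 without replicate 4), and the median was 0.29. It was 0.08 without that library and 0.15 with a replicate block. These were Fcgr4, the Fc receptor genes Fcgr3 (0.43 ± 0.151) and Fcgr1 (0.69 ± 0.291), and C1qb, a chain of complement C1q (0.48 ± 0.186). Fcgr2b, the inhibitory Fc gamma receptor, had a log2 difference of -0.01 ± 0.199. Among MHC class II genes 1 of 9 had a higher value at that threshold (0 without replicate 4), namely H2-Aa, at 0.634 to 19.6 CPM over the 10 libraries.

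The interferon-stimulated list had a median of 0.18, with 4 of 44 members higher at an unadjusted p under 0.05 and 0 lower. Without CON_CON_LPS replicate 4, in which this list stood at its highest of the 4 libraries without PLX (6.05 in mean log2 CPM, against 3.96 to 5.79), 11 members were higher and the median was 0.55. With a replicate block 9 were higher and the median was 0.33. Ifitm3, which restricts virus entry, had 28.4, 226, 69.9 and 52.0 CPM without PLX and 123 to 378 with PLX (log2 difference 1.17 ± 0.491). The members Bst2, Oas3 and Ifi207 differed by 0.92, 1.91 and 0.58, and Ddx58, which encodes the RNA sensor RIG-I, by 0.01. Oas3 was low, at 0 to 3.75 CPM without PLX and 0.190 to 15.3 with PLX, which overlap.

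NF-kB target genes lay the other way, with a median of -0.35, and 2 of 24 had a lower value at an unadjusted p under 0.05 (7 without CON_CON_LPS replicate 4, where the median was -0.59, and 1 with a replicate block). In a fit of the 2 groups alone with a replicate block the median was 0.13. These 2 were Tnfaip2 and Rel, an NF-kB subunit, at -1.30 ± 0.624 and -0.58 ± 0.281. The cytokine gene Il1b had 146, 1147, 9.47 and 2147 CPM without PLX and 206, 940, 191, 263, 184 and 209 with PLX. Its values without PLX lay on both sides of all PLX values, and the log2 difference was -1.37 ± 1.02. Tnf had 546, 1347, 33.8 and 1517 CPM without PLX and 200 to 738 CPM with PLX, again inside the range without PLX (-0.65 ± 0.656). Ccl2, a chemokine that attracts monocytes, Cxcl10, an interferon-induced chemokine, and Tlr4 had log2 differences of -0.02 ± 0.711, 0.44 ± 0.679 and -0.01 ± 0.362. The chemokine list had a median of 0.21 (-0.09 without CON_CON_LPS replicate 4), with 12 of 15 tested members above 0. At an unadjusted p under 0.05, 1 of these 15 was higher (0 without replicate 4) and 0 were lower. In the MIA arms the NF-kB median for PLX after LPS was 0.41. That value includes MIA_CON_LPS replicate 6, whose levels of LPS-responsive genes are given below. The inflammasome sensor gene Nlrp3, of the cell death list, had a log2 difference of -0.77 ± 0.368. That list had a median of -0.05 (-0.09 without CON_CON_LPS replicate 4), with 8 of 17 tested members above 0. At an unadjusted p under 0.05, 1 of the 17 was lower, and 0 with a replicate block.

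Ribosomal protein genes had log2 fold changes above 0 in 79 of 79 members, with a median of 0.61, and 59 of them had an unadjusted p under 0.05. Without CON_CON_LPS replicate 4 the median was 0.36 and the count was 5 of 79. In mean log2 CPM the list stood at 7.13, 7.67, 6.16 and 8.03 in the libraries without PLX and at 7.87, 8.39, 8.04, 7.78, 8.19 and 7.62 in the PLX libraries. The groups overlapped through replicates 2 and 5 without PLX. Nuclear-encoded genes of oxidative phosphorylation were higher at that threshold in 17 of 36 members (2 without replicate 4), with a median of 0.55 (0.31 without it), and messenger RNAs of the mitochondrial genome in 4 of 13 (1 without replicate 4), with a median of 0.49 (0.19 without it). The medians of these 3 lists for PLX at saline were -0.05, 0.03 and -0.06.

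As shares of all counts, ribosomal protein genes took 2.12% ± 0.246 of the PLX libraries (SD, n = 6) and 1.46% ± 0.457 of the others (SD, n = 4), with an exact two-sided permutation p of 0.019 over 210 relabelings, or 0.0952 after Benjamini-Hochberg adjustment over 5 library measures. Without replicate 4 the exact p was 0.0595. Mitochondrial ribosomal RNA took 16.8% ± 1.88 and 12.6% ± 4.75 (exact permutation p = 0.0619, adjusted 0.103; 0.202 without replicate 4). Within the 4 pairs of libraries that share a replicate number, both shares were higher with PLX in 4 of 4, by a mean of 0.710 percentage points for ribosomal protein genes and 4.35 for mitochondrial ribosomal RNA. An exact sign-flip permutation test over these pairs gave p = 0.125 for each, the smallest that 4 pairs allow. Total counts were 4253880 ± 1214370 (n = 6) and 3750410 ± 791713 (n = 4), which did not differ beyond their spread (exact permutation p = 0.486).

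Genes that mark macrophages engrafted in the brain from the blood had higher values in 5 of 11 tested members (3 without replicate 4) at an unadjusted p under 0.05, with a median of 0.65 (0.15 for PLX at saline). Besides Ccr1 they included Ms4a6d (0.65 ± 0.249), Klra2 (2.22 ± 0.753) and Apoe, the main apolipoprotein of the brain. Klra2 was low, at 0 to 3.49 CPM without PLX and 3.14 to 13.6 with PLX, which overlap. Apoe had 65.6, 222, 124 and 238 CPM without PLX and 142, 549, 401, 227, 307 and 325 with PLX, which overlap (log2 difference 0.999 ± 0.373). Ms4a6d is also among the acute LPS markers, of which 4 of 15 were higher (2 without replicate 4), with a median of 0.76 (0.95 for PLX at saline). Spp1, osteopontin, of the disease-associated list had a log2 difference of 1.16 ± 0.495, the largest of that list. The list had a median of 0.15 (0.07 without replicate 4), with 2 of 23 tested members higher and 0 lower at that threshold. Without replicate 4, 2 were higher and 1 lower. The monocyte list had a median of 0.71 (2.10 for PLX at saline), with 1 of 8 tested members higher (2 with a replicate block). This was Fn1, fibronectin, at 14.2, 116, 38.4 and 136 CPM without PLX and 32.4 to 624 with PLX (1.92 ± 0.654). Ccr2, the defining receptor of classical monocytes, stood at 0.536 to 5.86 CPM without PLX and 0.569 to 6.52 with PLX. The summed monocyte markers stood at 29.2 to 162 and 68.0 to 654 CPM, and Fn1 made up most of the highest sum in each group.

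Markers of other brain cells were low in all 10 libraries and are given because several had higher values in the PLX libraries. The 6 tested neuron markers of 13 had a median of 1.29, with 3 at an unadjusted p under 0.05 (2 without replicate 4). Their sum was 5.63 to 30.9 CPM without PLX and 14.8 to 57.2 CPM with PLX. Gad2, the GABA synthesis enzyme of striatal neurons, had 1.34, 2.11, 1.28 and 0.951 CPM without PLX and 5.12, 3.71, 6.79, 6.83, 10.4 and 0 with PLX. The 7 tested astrocyte markers of 9 had a median of 1.10, with 2 at that threshold (0 without replicate 4, with a median of 0.70) and a sum of 89.4 to 203 CPM against 189 to 345 CPM. The glutamate transporter gene Slc1a2 had 72.0, 77.8, 6.65 and 14.0 CPM without PLX and 63.2 to 216 with PLX. Neutrophil markers had a median of 0.52 (0.11 without replicate 4 and 1.09 with a replicate block) and sums of 53.6 to 375 and 83.0 to 366 CPM. For PLX at saline the medians of the neuron, astrocyte and neutrophil lists were -0.48, 0.41 and 4.76. In these lists 0 of 6, 0 of 7 and 5 of 7 tested members had an unadjusted p under 0.05 at saline. For PLX at saline edgeR called 0 of 13420 genes higher and 0 lower. Of 11 lymphocyte markers 1 passed the filter, and Cd3e, Cd3g, Ms4a1, Nkg7 and Trac had 0 counts in the 10 libraries. The part of these cells in the results above was not tested. In these bulk samples, fewer cells of a type and less RNA per cell cannot be told apart.

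**Figure D3:**
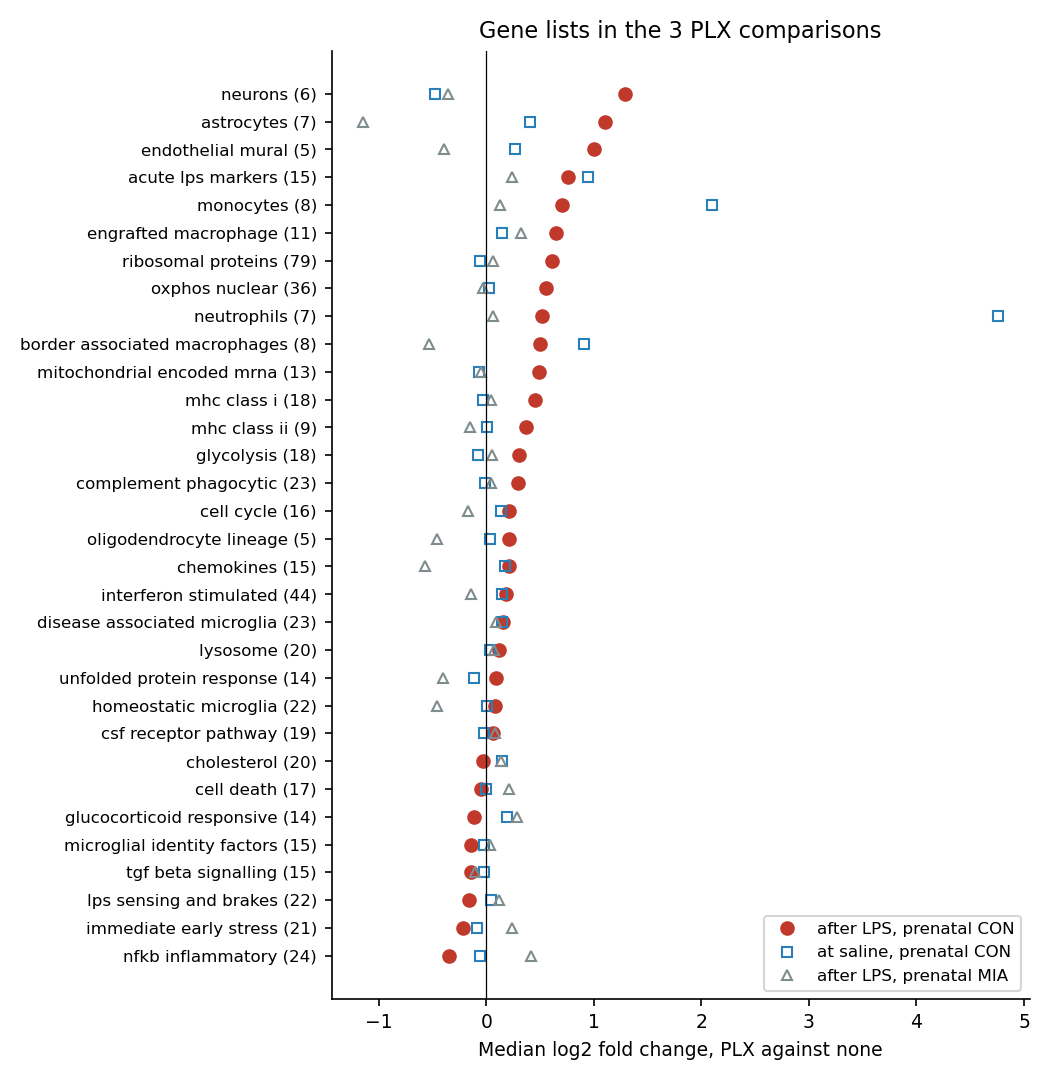
Median log2 fold change of PLX against none for each gene list with 5 or more tested members (horizontal axis; the number tested stands after each name), after LPS with a control prenatal history (red circles), at saline with a control prenatal history (blue squares) and after LPS with prenatal MIA (grey triangles). Ribosomal proteins lie at 0.61, -0.05 and 0.06 and NF-kB targets at -0.35, -0.06 and 0.41 in the 3 comparisons.

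Several other lists had 0 members at an unadjusted p under 0.05. Lysosomal, cholesterol and cell cycle genes had medians of 0.12, -0.03 and 0.22 (0.03, 0.01 and 0.12 without CON_CON_LPS replicate 4). The unfolded protein response list had a median of 0.09, and without that library a median of -0.12 with 1 of 14 lower. Glucocorticoid-responsive genes had a median of -0.11 (-0.04 without it). Immediate early genes, the first to be transcribed after a stimulus, had log2 fold changes above 0 in 2 of 21 members and a median of -0.22. It was -0.59 without CON_CON_LPS replicate 4 and -0.07 with a replicate block, with 0 members at the threshold in both.

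CSF receptor pathway genes had a median of 0.07 with 1 of 19 higher. Without CON_CON_LPS replicate 4 the median was 0.01, with 0 higher and 1 lower. TGF-beta signalling genes had a median of -0.14 with 0 of 15 at the threshold, and 2 were lower without that library. Microglial identity factors had -0.14 with 1 of 15 lower. Genes of glycolysis had log2 fold changes above 0 in 16 of 18 members, with a median of 0.30 (0.12 without replicate 4). Of these 2 were higher at the threshold, 1 without replicate 4 and 5 with a replicate block. Slc2a1, the glucose transporter, led the list with 0.57 ± 0.199.

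Fold change followed gene length and class. The 11082 protein-coding genes tested were divided into 5 classes of equal size by exonic length. The shortest class (median 1903 bases) had a median log2 fold change of 0.22, with 75.1% of values above 0, and 11.9% were higher at an unadjusted p under 0.05. The longest class (median 10219 bases) had a median of -0.10, with 32.6% above 0. Spearman's correlation of log2 fold change with exonic length was -0.32 over these genes, which share the same 10 libraries. It was -0.25 without CON_CON_LPS replicate 4, -0.00 for PLX at saline and -0.06 for PLX after LPS in the MIA arms. Ribosomal and oxidative phosphorylation genes are short. The part of length in their values, and in those of the other lists, was not tested.

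**Figure D4:**
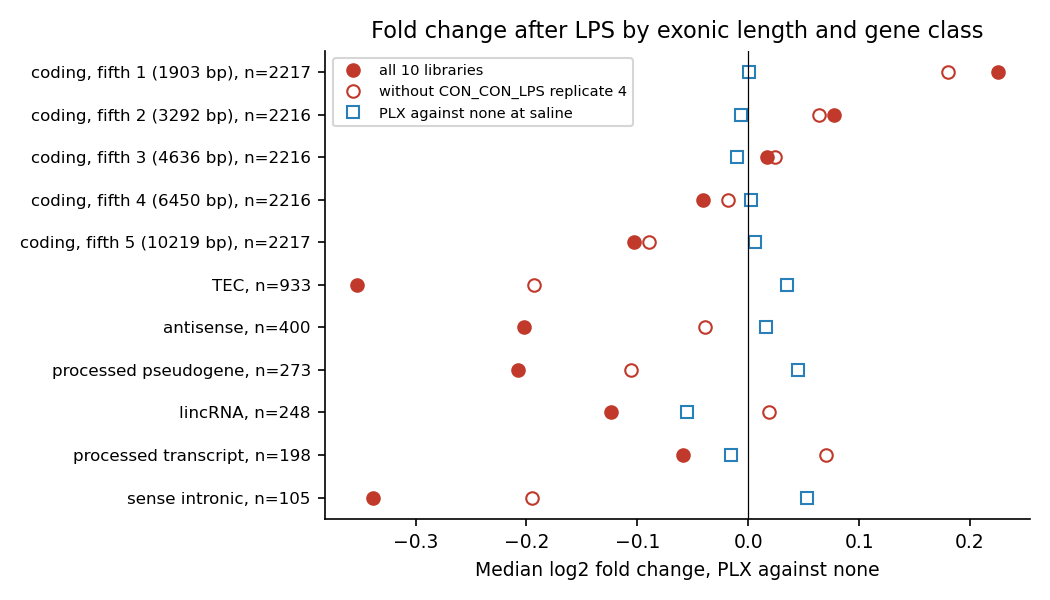
Median log2 fold change of PLX against none after LPS (horizontal axis) for 5 classes of protein-coding genes by exonic length, with the median length in bases, and for other gene classes, with all 10 libraries (filled), without CON_CON_LPS replicate 4 (open circles) and for PLX at saline (squares). Values run from 0.22 in the shortest to -0.10 in the longest coding class and reach -0.35 in the class TEC.

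The class TEC of the annotation, which holds mostly unspliced transcript models, had a median of -0.35 over 933 genes (-0.19 without replicate 4), and 10.5% had a lower value at an unadjusted p under 0.05. Sense intronic transcripts had a median of -0.34 (-0.20 without replicate 4). TEC genes took 1.25% ± 0.247 of the counts with PLX (n = 6) and 1.79% ± 0.633 without (n = 4), with an exact permutation p of 0.0524 (0.19 without replicate 4). Within the pairs their share was lower with PLX in 4 of 4, by a mean difference of -0.632 percentage points (exact sign-flip permutation p = 0.125).

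To see how far the response to LPS differed with PLX, genes were taken that edgeR called as changed by LPS in both MIA arms. The changes had the same direction and were more than 1 on the log2 scale. Their fold changes compare MIA libraries only, but the filter and the estimates of spread behind the calls used all 37 libraries. Of 740 genes higher after LPS in both MIA arms, 0 were called by edgeR between the PLX arm and the arm without PLX. At an unadjusted p under 0.05, 66 were higher (8.92%) and 10 lower (1.35%). Their median was 0.16. In mean log2 CPM these genes stood at 5.23, 4.93, 4.98 and 5.22 without PLX and at 5.62, 4.88, 5.41, 5.29, 5.47 and 5.16 with PLX, against 3.03 to 3.22 in the saline libraries. The groups overlapped, and both were far above saline.

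Of 552 genes lower after LPS in both MIA arms, 0 were called by edgeR between the arms, with 4 higher and 22 lower at an unadjusted p under 0.05 (3.99% lower) and a median of -0.11, which was 0.04 without CON_CON_LPS replicate 2. They stood at 2.66 to 3.55 in mean log2 CPM without PLX and at 2.51 to 3.599 with PLX, against 4.98 to 5.11 at saline. The median LPS response of the 740 higher genes was 1.92 without PLX and 1.99 with PLX, and that of the 552 lower genes -1.67 and -1.77. LPS raised 1841 genes without PLX (13.7% of genes tested) and 2354 with PLX (17.5%), from groups of unequal size. One library of the MIA arms stood apart on both lists. MIA_CON_LPS replicate 6 was at 4.48 for the 740 higher genes and 4.53 for the 552 lower genes. The other MIA_CON_LPS libraries were at 5.03 to 5.35 and 2.43 to 3.51.

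**Figure D5:**
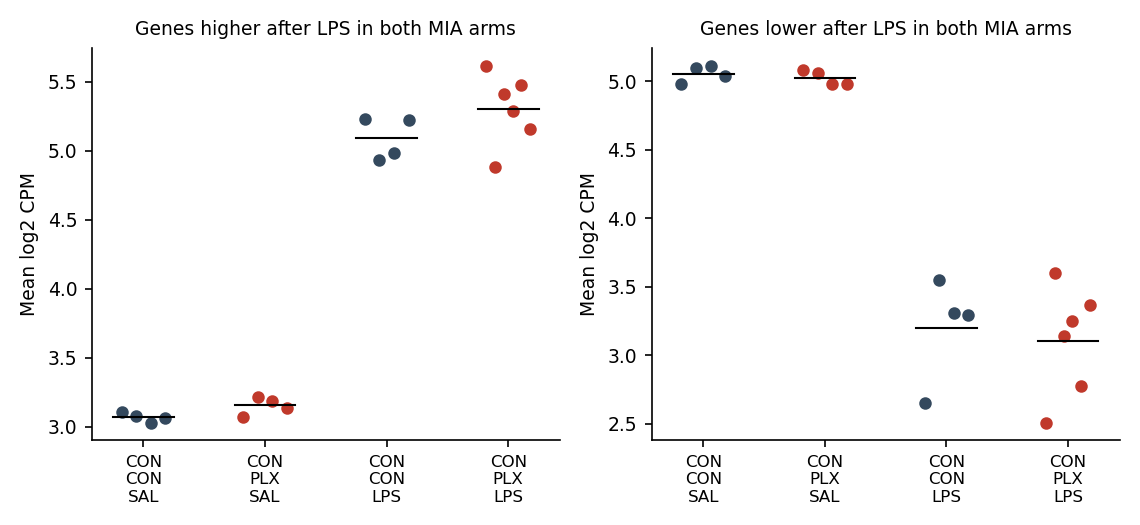
Mean log2 CPM (vertical axis) of the 740 genes higher and the 552 genes lower after LPS in both MIA arms, in each library of the 4 groups with a control prenatal history (dark, without PLX; red, with PLX; line, mean). The LPS libraries with and without PLX overlap in both panels.

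The PLX difference after LPS was next compared with that at saline, as an interaction that does not share control libraries between its terms. No gene was called by edgeR (smallest adjusted p = 0.99995), with 356 at an unadjusted p under 0.05 (2.65%), and DESeq2 and limma voom called 0. The smallest p belonged to Trex1, an exonuclease that degrades cytosolic DNA, with a PLX difference of 0.41 after LPS and -0.52 at saline. The next were Esyt2, Mrps33, Gadd45g and Tsen34. Gadd45g, a stress-induced gene, had 5.09 to 9.20 CPM without PLX and 5.69 to 37.5 with PLX after LPS.

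The PLX difference after LPS was finally compared between the prenatal histories. It differed for 5 genes by edgeR at an adjusted p under 0.05, with 1 higher (0.00745%) and 4 lower (0.0298%) in the control history, and 911 genes had an unadjusted p under 0.05 (6.79%). Dcbld2 had a PLX difference of -0.69 with a control history and 0.64 with MIA, a difference of -1.34 ± 0.27 (adjusted p = 0.0461). Its CPM in the MIA arms was 17.4 to 30.0 without PLX and 23.6 to 50.2 with PLX. Gm45220 and AC122252.2, 2 genes named only by clone or model, differed by -2.43 ± 0.442 and -2.79 ± 0.474 (adjusted p = 0.0174 and 0.0152). Gm45220 had 86.8 to 322 CPM without PLX and 38.1 to 117 with PLX in the control history, and 34.4 to 113 and 87.7 to 294 CPM in the MIA arms.

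The other 2 rested on few counts. Ppl, which encodes periplakin of cell junctions, had 49 counts in 4 libraries without PLX and 33 in 6 with PLX in the control history, and 26 and 99 counts in the 6 libraries each of the MIA arms. Its PLX differences of -1.25 and 2.01 differed by -3.25 ± 0.609 (edgeR, adjusted p = 0.0174). Gpr37l1, a receptor of astrocytes, had 3 counts without PLX and 36 with PLX in the control history, a ratio of 7.61 with a 95% interval of 2.40 to 38.6 that covers counting error only. In the MIA arms it had 39 and 4 counts, a ratio of 0.111 (0.0288 to 0.308). The fitted log2 difference between the histories was 5.69 ± 1.05 (edgeR, adjusted p = 0.0174). Astrocyte markers had PLX medians of 1.10 in the control history and -1.14 in the MIA arms, and the part of astrocyte RNA in the values of Gpr37l1 was not tested.

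With a replicate block Dcbld2 and Ppl were no longer called by edgeR (adjusted p = 0.0512 and 0.0569), whereas the other 3 genes were, and the predicted gene Gm38091, outside the naming rule, was added. In 22 fits that each left out 1 library, Dcbld2 lost its call in 15 (adjusted p from 0.0520 to 0.259) and held it only without CON_CON_LPS replicate 4, CON_PLX_LPS replicate 4, MIA_CON_LPS replicate 6 or MIA_PLX_LPS replicate 2, 3, 4 or 5. Ppl lost its call in 4, without CON_CON_LPS replicate 2 or 5, CON_PLX_LPS replicate 3 or MIA_CON_LPS replicate 3 (adjusted p from 0.0506 to 0.0890). The other 3 genes lost theirs in 1 of the 22. That was the fit without CON_CON_LPS replicate 5, where edgeR called 0 genes for this difference, with adjusted p from 0.0866 to 0.259 for the 5. In that library Gm45220 stood at 322 CPM against 86.8 to 185 in the other 3 without PLX.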

How the data were processed

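Expected counts per gene of 55487 identifiers in 39 libraries were deposited by the authors. Per the submitters' processing notes STAR, RSEM and DESeq2 were used, with no version or role; the genome build is not given in the sources used here. Per the labels' protocols, complementary DNA was amplified with a kit that keeps no strand and removes no ribosomal RNA. Of the nonzero values, 14.7% were not whole, and all were rounded. Symbols came from GENCODE M21 (GRCm38; 55141 identifiers matched).

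Genes were filtered with filterByExpr (minimum count 10, total 15), scaled by TMM and fitted with edgeR 4.0.16 (robust quasi-likelihood, R 4.3.3) with 1 mean for each of 8 groups of 37 libraries. Tests were two-sided with Benjamini-Hochberg adjustment over all 13420 genes, with calls at adjusted p below 0.05. SE is the absolute log2 fold change over the square root of F. The alternatives used DESeq2 1.42.0, limma 3.58.1, other filters, a replicate block and leaving out libraries. The code was tested on simulated data. The 10 libraries held 2640420 to 5746240 counts, and no pair of the 45 agreed within sampling noise (lowest chi-square per degree of freedom 5.84).

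Named genes were those called, then those of smallest p at an average log2 CPM of at least 3 without predicted models (6 in each direction, called ones included), up to 4 members of smallest p and the member of largest p in each list, 5 genes of smallest p for other contrasts and 11 microglial and LPS genes. Members and lists were chosen with earlier results of these data known.

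Libraries with the same replicate number deviated together from their group means: over replicates 1, 2, 4 and 5 the correlation across genes was 0.663, 0.560, 0.284 and 0.168. The main fit held no replicate block. The numbers were taken to pair the libraries only in the fits with a replicate block and in the tests within same-numbered pairs. The labels do not say what the numbers mark, and replicates 4 and 5 correlated more with another number.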

Additional observations from a re-analysis of the deposited data

Results flagged for a closer look

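In 8 of 124 groups of values checked (6.45%), the highest or lowest library stood apart from the rest by Dixon's criterion; chance flags about 5% of groups, here 6.2. NF-kB target genes in CON_CON_LPS replicate 4 stood at 4.34 in mean log2 CPM, with the next library at 7.09. Glucocorticoid-responsive genes in CON_CON_LPS replicate 2 stood at 6.28, with the next at 7.29. CON_PLX_LPS replicate 1 stood apart for microglial identity factors at 6.38 (next 6.96), for LPS sensing genes at 6.65 (next 6.18) and for neutrophil markers at 2.67 (next 3.24). Cholesterol genes in CON_PLX_LPS replicate 5 stood at 4.19 (next 3.92). Tnf in CON_PLX_LPS replicate 6 was at 200.2 CPM (next 546) and Il1b in CON_PLX_LPS replicate 2 at 940.5 CPM (next 263).

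The PLX difference after LPS differed between the prenatal histories, by edgeR's interaction test, for Gpr37l1 at 5.69, Dcbld2 at -1.34, Ppl at -3.25, Gm45220 at -2.43 and AC122252.2 at -2.79 on the log2 scale.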

How the results depend on the processing

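Genes called lower in the PLX arm after LPS numbered 1 in edgeR and 0 with limma voom, without a filter on low counts and in a fit of the 2 groups alone; leaving out 1 library gave 0 to 1. Genes called higher numbered 0, against 1 with the replicate block (Elob) and 3 in the fit of the 2 groups with a replicate block (Ccl12, Ccr1 and Mrc1, all 3 list members), where Gm49369 was called lower in place of Nbea, an alternative added after the data were seen. With the block in the fit of all groups Nbea was still called. Gm49369 and Gm38091 are named after their values were seen. For the difference between prenatal histories, 1 higher and 4 lower genes became 6 and 10 with DESeq2, 0 and 0 with limma voom and with only the groups compared, 0 and 2 with genes kept from an average log2 CPM of 3 upwards and with both marked libraries included, and 1 and 1 without a filter. With the replicate block 3 of the 5 were called, with Gm38091 added. Leaving out 1 library gave 0 to 4 higher and 0 to 8 lower genes. The interaction with saline stayed at 0 genes in every fit run. The median of genes lower after LPS in the MIA arms was -0.11, and -0.59 with both marked libraries included. The difference in mitochondrial ribosomal RNA, 4.23 percentage points, ran from 2.07 to 5.55 when 1 library was left out. Where no value above shows it, the cause was not tested. List counts without CON_CON_LPS replicate 4 and the differences within same-numbered pairs were also added after the data were seen. Groups of 4 and 6 libraries limit what could be called.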
